A study of Mus musculus with 8 samples.

Results

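The genes described here encode voltage-gated and calcium release ion channels: every gene on the array whose symbol begins with Kcn, Cacn, Clcn or Ryr, or names a numbered Scn gene, Itpr1 to Itpr3 or a Trpc, Trpm or Trpv channel. They numbered 80 of 6370 genes with a symbol. Of 10500 probes, 80 matched, 1 for each gene, so no choice between probes was needed. Ryr and Itpr genes had no probe with a symbol, so despite its name the group holds 0 calcium release channels of the sarcoplasmic reticulum. Whether any probe without a symbol measures such a channel is not known. The main muscle sodium channel Scn4a and the muscle chloride channel Clcn1 were also not among the members. Gene levels came from 8 microarrays, each of 1 extensor digitorum longus (EDL), a hindlimb muscle built mostly of fast fibres, taken from 4 male Swiss Webster mice (the label of 1 muscle leaves out the sex). In mice 183, 197, 438 and 440 the EDL of 1 leg was made to contract for 4 h through its nerve (stimulated), while the resting EDL of that mouse's opposite leg was the control (contralateral, 0 h). The labels give no genotype beyond the stock and no age.

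Muscle fibres contract when an action potential, carried by sodium channels and ended by potassium and chloride channels, spreads along the membrane into the transverse tubules. There the dihydropyridine receptor, a voltage-gated calcium channel whose pore subunit is Cacna1s, acts as a voltage sensor and opens the ryanodine receptor of the sarcoplasmic reticulum. Potassium channels set the resting potential and limit firing in fatigue, and transient receptor potential (TRP) channels admit calcium and magnesium on stretch, lipid or store signals. Whole muscle also holds nerve endings, vessels and blood cells with channel genes of their own, and in such RNA fewer cells of a type and less RNA per cell cannot be told apart.

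After 4 h of contraction 0 of 79 tested channel genes passed adjusted p 0.05, against 1.34% of all 10406 tested probes, 1.11% higher and 0.231% lower (limma with mouse as a block, Benjamini-Hochberg adjustment over all tested probes). At unadjusted p under 0.05 there were 6 channel genes, where 15.2% of all probes reached that level. Cacna1c, Kcne4, Kcns1 and Kcnk7 were the 4 with a positive change, against 6.74% of all probes, and Kcnj15 and Kcna4 the 2 with a negative one, against 8.49%. A paired test without moderation of the variance also passed 0 channel genes, with 6 at unadjusted p under 0.05. The smallest adjusted p of a channel gene was 0.15. The groups did not overlap for 0 channel genes in either direction, where 1.63% of all probes had every stimulated muscle above every contralateral one and 1.7% the reverse. No channel gene changed at least 2-fold in the fitted means (0 of 79), against 4.23% of all probes.

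Changes below are log2 differences, stimulated minus contralateral, estimated within mice, with limma's moderated standard error (SE) after ± and a 95% interval. Intensities are given on the deposited linear scale, in the order of mice 183, 197, 438 and 440. Array medians lay between 0.90 and 0.94 intensity units, and any value below 0.0937 was set to that floor before the logarithm. Between 0 and 14 of the channel genes were under the floor on any 1 array, most often in the stimulated muscle of mouse 183. The files hold no detection calls, so brightness here says how precisely a probe was measured, not how one gene's level compares with another's. All 9 measured markers of fast fibres, among them Tnni2 and Pvalb, were above the median of all probes. Of markers of slow fibres, Schwann cells, endothelium, leukocytes, fibroblasts, adipocytes and erythroid cells, 0 of 4, 2, 7, 7, 5, 2 and 1 tested passed. Of 6 satellite cell markers 1 rose (Sdc4, 2.16-fold), against 1.11% of all tested probes. The summed leukocyte markers ranged from 18.6 to 112 in contralateral and 22.4 to 568 in stimulated muscle. Both highest sums were in mouse 440. The 568 came mostly from S100a8 and Cd14, with changes of 2.41 and 3.57 in that mouse. In mice 183, 197 and 438 S100a8 changed by 0.28, 0.34 and 0.04, and Cd14 by 0.93, 0.96 and 1.11. Lyz2 and Itgam were lower in 3 of 4 mice and higher in mouse 440. The part of the leukocyte markers in the channel values was not tested.

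Promoter windows are shown for the muscle voltage sensor Cacna1s and for Kcne4 and Kcns1, both among the genes with the smallest p and each with 1 start in the RefSeq table (build GRCm38.p6); Cacna1c, with several starts, is left out. Each window runs from 250 bases before to 50 bases after the start of the gene, 5′ to 3′ on its own strand. Capitals mark matches to CANNTG, the E-box that muscle factors of the MyoD family and other helix-loop-helix proteins can bind.
Cacna1s (chr1:136052561-136052860, plus strand): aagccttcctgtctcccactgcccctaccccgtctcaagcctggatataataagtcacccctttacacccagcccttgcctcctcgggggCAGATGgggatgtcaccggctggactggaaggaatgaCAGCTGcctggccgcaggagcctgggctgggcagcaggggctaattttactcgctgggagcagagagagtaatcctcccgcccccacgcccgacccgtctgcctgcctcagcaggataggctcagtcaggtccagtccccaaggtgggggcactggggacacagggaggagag
Kcne4 (chr1:78816661-78816960, plus strand): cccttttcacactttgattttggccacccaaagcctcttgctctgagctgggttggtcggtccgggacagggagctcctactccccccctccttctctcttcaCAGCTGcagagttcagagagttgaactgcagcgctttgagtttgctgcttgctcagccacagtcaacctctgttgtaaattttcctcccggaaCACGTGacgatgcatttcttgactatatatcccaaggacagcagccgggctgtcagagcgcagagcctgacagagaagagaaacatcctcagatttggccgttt
Kcns1 (chr2:164171064-164171363, minus strand): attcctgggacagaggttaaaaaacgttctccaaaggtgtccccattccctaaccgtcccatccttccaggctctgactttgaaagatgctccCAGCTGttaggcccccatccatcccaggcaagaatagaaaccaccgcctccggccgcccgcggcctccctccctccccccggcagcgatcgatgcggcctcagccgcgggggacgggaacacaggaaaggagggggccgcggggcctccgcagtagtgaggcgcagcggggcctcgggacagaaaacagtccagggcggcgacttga
There were 2 matches in the Cacna1s window, 2 in that of Kcne4 and 1 in that of Kcns1. Windows were at hand for 66 of the 80 channel genes, counting the first start listed, and 52 of them (78.8%) held CANNTG on either strand, against 72.1% of 27025 windows of all genes. The cyclic AMP response element TGACGTCA was in 2 of the 66, Clcn3 and Clcn4 (3.03%, against 1.88% of all), and the AP-1 motif TGANTCA in 3, Kcnip3, Kcnip4 and Kcne3 (4.55%, against 7.93%). These counts describe the letters in the windows, and binding was not measured.

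All 4 kinds of subunit of the muscle voltage sensor were measured. Cacna1s, the pore and voltage sensor, had intensities of 69.9, 65.4, 70.8 and 62.1 in contralateral muscle. In stimulated muscle it had 63.5, 42.7, 66.8 and 40.5. Mice 197 and 440 had the low stimulated muscles, while those of mice 183 and 438 fell within the contralateral range, so the groups overlapped. The change was -0.36 ± 0.17 (n = 4 mice, negative in 4 of 4, 95% interval -0.75 to 0.03, adjusted p 0.344). Over the 9 markers of fast fibres the median was -0.49, with 0 past the threshold and 9 of 9 negative. Over the 4 tested markers of slow fibres it was 0.85, with 0 past the threshold and 4 of 4 positive, and the part of either in the Cacna1s values was not tested.

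Cacnb1, the intracellular beta subunit that brings the pore to the membrane, had 13.1, 17.3, 18.1 and 10.8 in contralateral muscle and 17.2, 14.1, 15.0 and 6.33 in stimulated muscle. Cacng1, the gamma subunit of skeletal muscle, had 11.2, 11.6, 8.50 and 8.47 against 15.3, 8.93, 8.46 and 7.37. For both genes mouse 183 was higher in the stimulated muscle and the other 3 mice were lower. Their changes were -0.23 ± 0.21 and -0.04 ± 0.20, with 95% intervals of -0.71 to 0.24 and -0.48 to 0.40. Cacnb1 was at -0.06 without mouse 440 and -0.44 without mouse 183. Cacna2d1, the extracellular alpha2-delta subunit, had a change of -0.24 ± 0.25 (interval -0.80 to 0.31) and, like Cacnb1 and Cacng1, was higher only in mouse 183. For each of these 4 subunits the interval leaves out a 2-fold change in either direction.

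**Figure D1:**
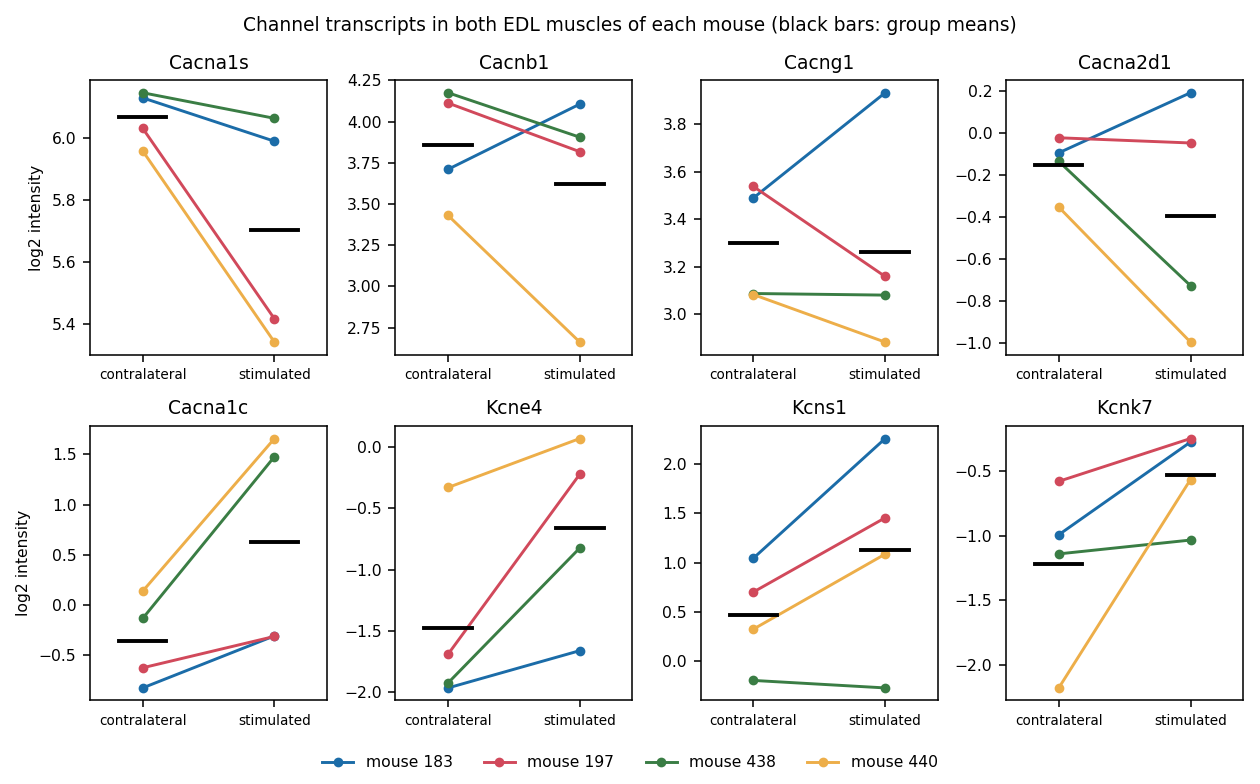
Log2 intensity (vertical axis, scaled separately for each gene) in the contralateral and stimulated EDL of each mouse, with a line joining the muscles of 1 mouse and black bars for the group means. The upper row holds the 4 subunits of the muscle dihydropyridine receptor, with Cacna1s negative in all 4 mice. The lower row holds the 4 genes with a positive change and unadjusted p under 0.05, of which Kcns1 was not higher in mouse 438.

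Cacna1c, the pore of the L-type calcium channel of heart and smooth muscle, had the smallest p of all channel genes. Its intensities were 0.564, 0.648, 0.911 and 1.10 in contralateral muscle and 0.808, 0.805, 2.78 and 3.15 in stimulated muscle. The stimulated muscle was the higher one in 4 of 4 mice, but the stimulated muscles of mice 183 and 197 lay within the contralateral range. The change was 0.99 ± 0.28, or 1.99-fold (95% interval 0.37 to 1.62, adjusted p 0.15). Most of it came from mice 438 and 440, where the change was 1.57 (adjusted p 0.0868, where the 17 alternative settings ran from there to 0.997), against 0.42 within mice 183 and 197. A limma term for the difference between these pairs of mice was 1.15 ± 0.44 and did not pass (adjusted p 0.989). It passed for 0 of 10245 fitted probes. The mice were paired only by their nearby numbers, which the labels do not call a batch. With 1 mouse left out the change of Cacna1c ranged from 0.78 to 1.22.

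Markers of smooth muscle and pericytes differed by mouse. In mouse 183 all 6 were lower in the stimulated muscle, from Tagln at -1.24 to Acta2 at -0.04. In mouse 440 all but Smtn (-0.32) were higher, up to Tagln at 1.16. In mice 197 and 438 they went both ways. In the fit over all 4 mice 0 of 6 passed, and 3 had positive and 3 negative changes, with a median of -0.17. Their summed intensity was 34.0 to 65.1 in contralateral and 35.2 to 64.0 in stimulated muscle; their part in the Cacna1c values was not tested. Kcnmb1, a smooth muscle subunit of the large calcium-activated potassium channel, had a change of 0.02 ± 0.29. In mice 183, 197, 438 and 440 it was at -0.92, 0.07, 0.37 and 0.58. Kcnj8, the pore of the ATP-sensitive potassium channel of vessels, had a change of 0.11 ± 0.28. For Kcnj8 the stimulated muscle of mouse 440 stood at 7.53 against 3.33 in its contralateral muscle, and without that mouse the change was -0.25.

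Among 14 voltage-gated calcium channel genes 13 were tested, with 3 positive and 10 negative changes and a median of -0.19. Cacna1f, an L-type pore best known from the retina, was the other gene higher in 4 of 4 mice (0.27 ± 0.19, adjusted p 0.488). Cacna1b, the presynaptic N-type pore, had a change of -0.19 ± 0.24, and of 0.04 without mouse 440. The T-type pores Cacna1g and Cacna1h, which open near the resting potential, stood at -0.36 ± 0.26 and -0.06 ± 0.33. Cacna1a, the P/Q-type pore of motor nerve endings, stood at -0.28 ± 0.32, and Cacna2d3, Cacng2 and Cacng4 at 0.29 ± 0.30, -0.33 ± 0.29 and -0.03 ± 0.34. Cacng3, a gamma subunit of brain, had values in mice 438 and 440 alone and was not tested; its intensities there were 0.0863 and 0.318 in contralateral and 0.188 and 0.135 in stimulated muscle.

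Sodium channels start the action potential. The 4 on the array, Scn1a, Scn8a, Scn10a and Scn11a, are best known from neurons, and their changes ran from -0.05 to 0.18. Scn11a, a channel of pain-sensing neurons, was bright on every array, with 158, 201, 182 and 196 in contralateral muscle and 228, 204, 167 and 240 in stimulated muscle. The groups overlapped, with a change of 0.18 ± 0.17 (95% interval -0.19 to 0.55). Scn10a, another channel of sensory neurons and the gene next to Scn11a in the mouse genome, had 9.23 to 13.4 in contralateral and 9.04 to 12.1 in stimulated muscle. Of 7 measured markers of neurons and axons 1 was above the median of all probes, and their summed intensity was 4.02 to 4.89 in contralateral and 4.00 to 4.48 in stimulated muscle. What sequences the Scn11a and Scn10a probes hybridise to was not tested.

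Voltage-gated potassium channels repolarise the membrane. Of 14 tested genes 5 had positive and 9 negative changes, with a median of -0.14. Kcns1, a subunit that forms no channel alone and modifies others, had 2.06, 1.63, 0.875 and 1.25 in contralateral muscle and 4.77, 2.74, 0.830 and 2.12 in stimulated muscle. Mice 183, 197 and 440 were higher in the stimulated muscle and mouse 438 slightly lower, and the groups overlapped. The change was 0.66 ± 0.25 (95% interval 0.11 to 1.21, adjusted p 0.255), and 0.48 without mouse 183.

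Kcna4, a rapidly inactivating channel, had 0.104, 0.152, 0.278 and 0.297 in contralateral muscle and 0.0793, 0.0889, 0.186 and -0.0537 in stimulated muscle. It was lower in 4 of 4 mice, but 3 of the 4 stimulated values were under the floor. The change was -0.77 ± 0.32 (95% interval -1.49 to -0.06, adjusted p 0.294), and -0.47 without mouse 440. Kcnd1, another rapidly inactivating channel, Kcnq1, best known from the heart, and Kcnh2, which repolarises the cardiac action potential, were likewise dim, with changes of -0.70 ± 0.33, -0.63 ± 0.32 and -0.58 ± 0.35. Each was negative in 3 of 4 mice and under the floor on 1 or 2 arrays. With 1 mouse left out Kcnh2 ranged from -0.96 (without 197) to -0.28 (without 440), and Kcnq1 was at -0.96 without mouse 438. Kcnc1, a channel of fast-firing cells, had a change of 0.41 ± 0.26, and of 0.19 without mouse 438. Kcna7, a gene expressed in skeletal muscle, stood at 0.04 ± 0.26, Kcna1 at -0.17 ± 0.24 and Kcnh3, a channel of brain, at -0.11 ± 0.21. The remaining 5 genes, Kcna2, Kcna3, Kcna6, Kcnd2 and Kcnh1, lay between -0.27 and 0.24.

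Inward rectifiers hold the resting potential and, as the ATP-sensitive channel, tie it to the energy state of the fibre. Of 10 genes 2 had positive and 8 negative changes, with a median of -0.37. Kcnj15 had 0.129, 0.191, 0.201 and 0.443 in contralateral muscle and 0.110, 0.112, 0.0965 and 0.282 in stimulated muscle. It was lower in 4 of 4 mice and dim in all, and the stimulated muscle of mouse 440 was above 3 of the contralateral ones. The change was -0.68 ± 0.27 (95% interval -1.29 to -0.06, adjusted p 0.289). It depended on the handling of low values, at -0.32 after quantile normalization, -0.16 with the floor at the 20th percentile and -0.11 as log2(intensity + 1).

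Kcnj2, the classical inward rectifier of muscle, had a change of -0.49 ± 0.29, and of -0.23 without mouse 440. Kcnj11, the pore of the muscle ATP-sensitive channel, was too dim to follow: it had 0.0758 to 0.286 in contralateral and 0.0749 to 0.160 in stimulated muscle, with mouse 183 under the floor in both, and a change of -0.26 ± 0.31. Kcnj12, a relative of Kcnj2, stood at -0.19 ± 0.32, and Kcnj1 and Kcnj5, both dim, at -0.47 ± 0.31 and -0.24 ± 0.29. The G protein-gated members Kcnj3 and Kcnj9 had changes of -0.49 ± 0.28 and -0.61 ± 0.34, both negative in 4 of 4 mice, and both owed most of it to mouse 440. Without that mouse they were at -0.11 and -0.23. Kcnj6, of the same G protein-gated group, was bright, with 42.5, 33.2, 53.0 and 90.5 against 61.3, 42.5, 66.2 and 88.8. It was higher in 3 of 4 stimulated muscles, with a change of 0.30 ± 0.17 (95% interval -0.08 to 0.67). What sequences the Kcnj6 probe hybridises to was not tested.

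Tandem-pore potassium channels carry background current. Kcnk7, a member of this family with no known current of its own, had 0.503, 0.669, 0.454 and 0.221 in contralateral muscle and 0.826, 0.842, 0.489 and 0.676 in stimulated muscle. It was higher in 4 of 4 mice, with the contralateral muscle of mouse 440 lowest and a change of 1.61 in that mouse. The fitted change was 0.69 ± 0.29 (95% interval 0.04 to 1.34, adjusted p 0.301), and 0.38 without mouse 440. Kcnk2, a stretch-sensitive channel, was bounded within 1.5-fold, with 7.37 to 12.2 in contralateral and 8.07 to 9.85 in stimulated muscle and a change of -0.03 ± 0.18 (95% interval -0.43 to 0.37). Kcnk5, Kcnk4 and Kcnk1 were dim and stood at -0.17 ± 0.31, -0.15 ± 0.32 and -0.08 ± 0.31.

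Calcium-activated potassium channels couple intracellular calcium to repolarisation. All 5 genes grouped here by symbol had negative changes, from -0.34 to -0.07, against 64.7% of all probes, and 0 passed. Kcnn1, a small-conductance channel, had 3.40, 2.58, 5.53 and 2.91 against 3.00, 2.16, 3.74 and 2.55, lower in 4 of 4 mice by -0.30 ± 0.19 (95% interval -0.73 to 0.13). Kcnn2 and Kcnn4, of the same family, stood at -0.17 ± 0.24 and -0.11 ± 0.21. Kcnma1, the large-conductance pore, was higher in the stimulated muscles of mice 183 and 197 and lower in those of mice 438 and 440, with a change of -0.07 ± 0.34. Kcnu1, a channel of sperm placed here by its symbol and not for gating by calcium, was dim. It had a change of -0.34 ± 0.27, which was -0.03 with the floor at the 20th percentile.

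Accessory subunits of potassium channels alter gating and traffic. Of 11 genes 5 had positive and 6 negative changes, with a median of -0.07. Kcne4, a single-pass subunit that restrains several voltage-gated channels, had 0.256, 0.310, 0.264 and 0.796 in contralateral muscle and 0.316, 0.858, 0.565 and 1.05 in stimulated muscle. It was higher in 4 of 4 mice, while the contralateral muscle of mouse 440 stood apart from the other 3 and made the groups overlap. The change was 0.82 ± 0.27, or 1.76-fold (95% interval 0.20 to 1.43, adjusted p 0.217), and 0.60 to 0.99 with 1 mouse left out. Its relative Kcne3 had a change of -0.58 ± 0.27. Kcnip3, a calcium-binding subunit that also acts as a transcriptional repressor, had a change of -0.71 ± 0.32, and of -0.39 without mouse 440. Kcnab2, a cytoplasmic beta subunit, was under the floor in 2 stimulated muscles, with a change of -0.50 ± 0.27. That value was set by the floor and the scaling: it was -0.96 with the floor at the 1st percentile, 0 at the 20th and -0.14 after cyclic loess. Kcnab1 and Kcnab3, of the same kind, stood at 0.26 ± 0.33 and 0.15 ± 0.27, Kcne1 and Kcne1l at -0.27 ± 0.32 and 0.34 ± 0.25, and Kcnmb4 at -0.07 ± 0.32.

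Chloride channels and exchangers of the Clcn family were represented by Clcn2 to Clcn7. Of 6 genes 1 had a positive and 5 negative changes, with a median of -0.13. Clcn3, a chloride-proton exchanger of endosomes, had 8.60, 8.30, 5.12 and 4.06 in contralateral muscle and 12.6, 7.04, 4.22 and 1.38 in stimulated muscle. Mice 183 and 440 went opposite ways, and the change was -0.38 ± 0.30, or 0.01 without mouse 440. Clcn2, a channel of the plasma membrane, had a change of 0.15 ± 0.29. The lysosomal and endosomal exchangers Clcn4, Clcn5, Clcn6 and Clcn7 lay between -0.29 and -0.07.

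TRP genes numbered 11, of which Trpc4ap encodes a protein that binds a TRP channel and is no channel itself. There were 3 positive and 8 negative changes, with a median of -0.32. Trpc1, tied to store-operated calcium entry, had 15.8, 18.9, 5.76 and 13.3 in contralateral muscle and 18.9, 10.6, 6.19 and 4.54 in stimulated muscle. Mice 183 and 438 were slightly higher, mice 197 and 440 lower, and the change was -0.51 ± 0.29 (-0.16 without mouse 440). Trpm7, a channel fused to a kinase that carries magnesium, had a change of 0.06 ± 0.19 (95% interval -0.38 to 0.49). Trpv2 and Trpv4, channels linked to stretch and osmotic stress, stood at 0.46 ± 0.30 and -0.24 ± 0.31, and Trpc7 at -0.46 ± 0.28, all of them dim. Trpv2 was at 0.16 without mouse 438, and Trpv4 and Trpc7 at -0.03 and -0.21 without mouse 440. The remaining TRP channels Trpc4, Trpc6, Trpm1, Trpm5 and Trpv6 lay between -0.50 and 0.07, with SEs of 0.28 to 0.36.

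**Figure D2:**
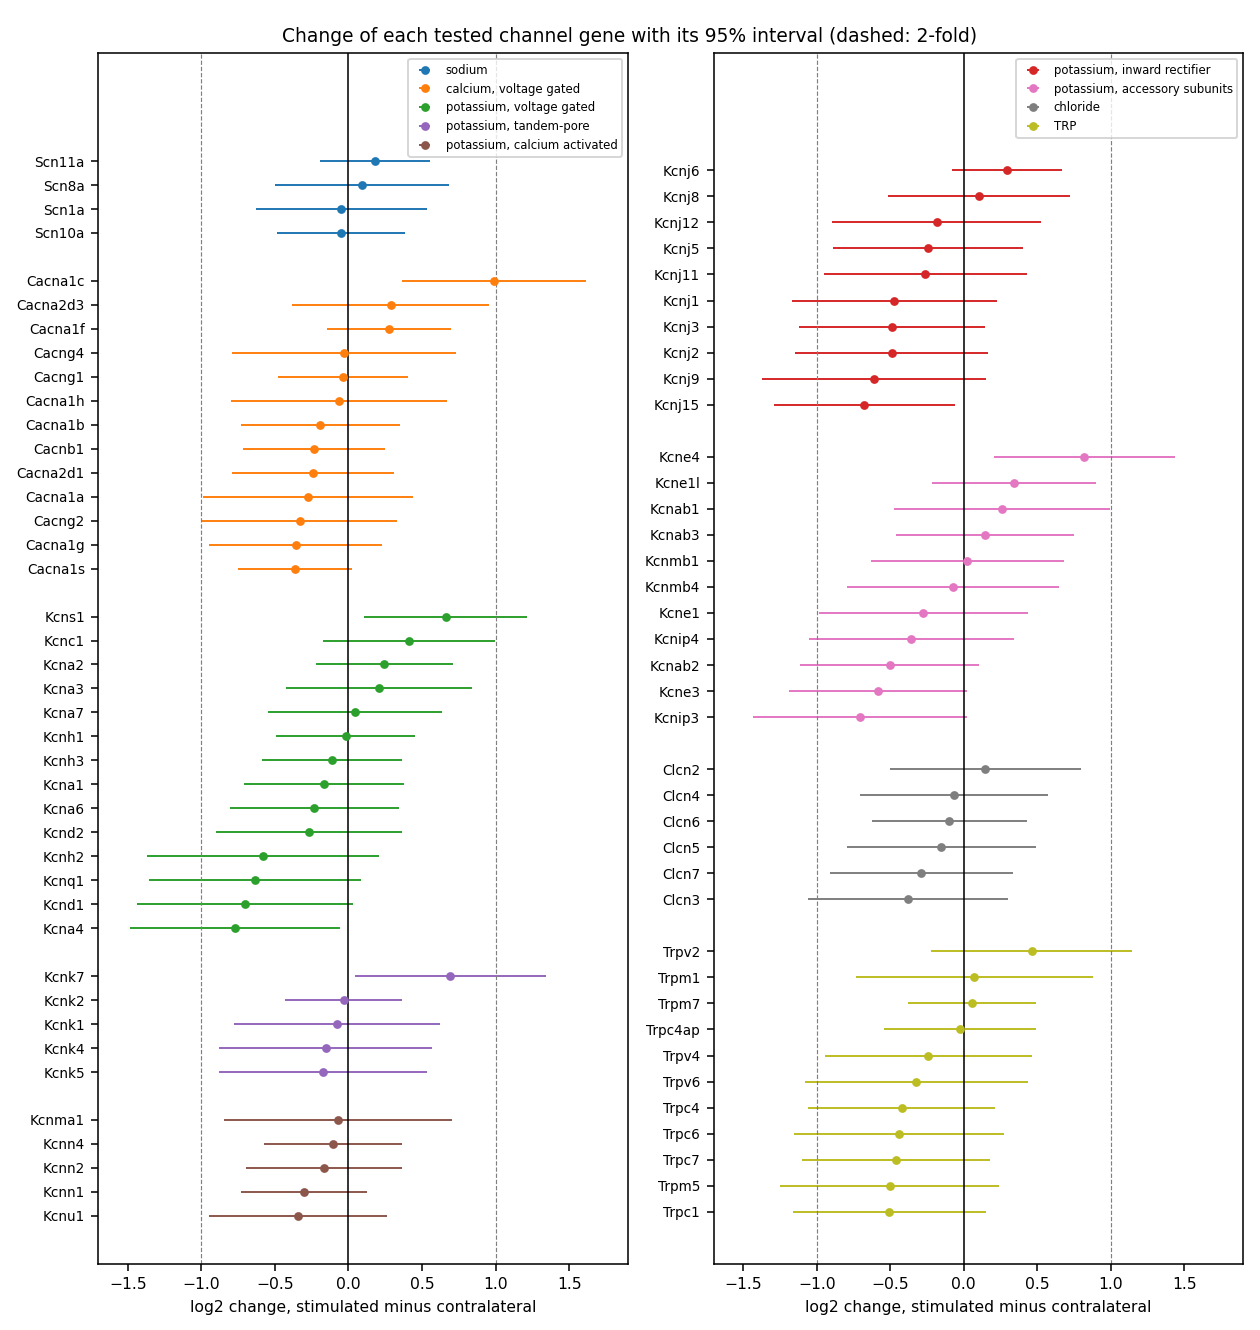
Fitted log2 change (horizontal axis, stimulated minus contralateral) of each of the 79 tested channel genes with its 95% interval, ordered by class and coloured by it; dashed lines mark 2-fold. The interval leaves out 0 for 6 genes and reaches 2-fold or beyond for 25.

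How tightly a change was bounded followed the brightness of the probe. The fit also shares the spread among probes of like brightness, and its part in this was not tested. The 95% interval lay inside 2-fold in both directions for 54 of 79 genes and inside 1.5-fold for 8. Of the channel genes 34 were among the dimmest 25% of tested probes, with a median SE of 0.31, and 10 among the brightest 25%, with a median SE of 0.19. In the dimmest 25%, 0 of all 2602 probes passed the threshold, against 2.31% in the brightest 25%. The interval reached 2-fold or beyond for 25 genes. Among them Cacna1c, Kcne4, Kcns1, Kcnk7, Kcnj15 and Kcna4 had intervals that left out 0, though their adjusted p did not pass. For the rest of the 25, the interval held both 0 and a 2-fold change.

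Negative changes outnumbered positive ones, at 57 of 79 channel genes against 64.7% of all probes. The median change was -0.17 over the channel genes and -0.14 over all tested probes. Among the dimmest 25% of probes the median was -0.31 over the channel genes and -0.31 over all probes, and in the next 25% it was -0.11 and -0.08. After cyclic loess scaling, which moved the median of all probes to -0.01, 40 of 79 channel genes were negative with a median near 0 (-0.001), and after quantile normalization 43 of 79. The negative lean of the channel genes was thus also present in all probes of like brightness, and it was smaller or gone after these scalings.

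**Figure D3:**
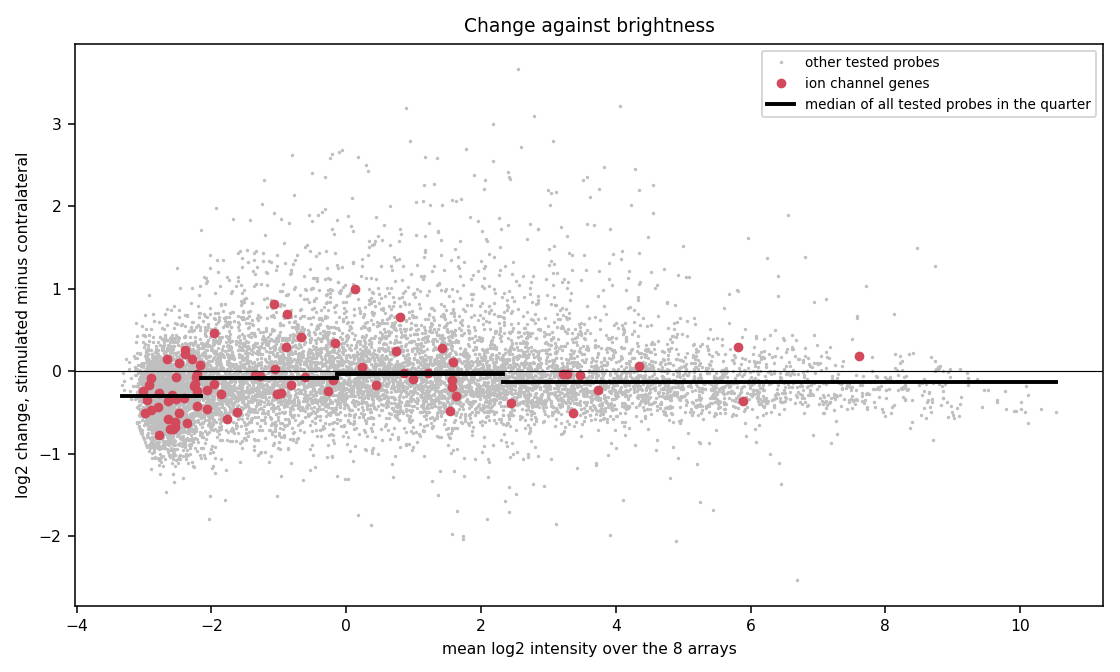
Fitted log2 change (vertical axis) against the mean log2 intensity over the 8 arrays (horizontal axis) for channel genes (red) and all other tested probes (grey), with black bars for the median of all tested probes in each 25% by brightness. Channel genes crowd the dim end, where the median of all probes was -0.31, and follow the grey cloud.

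Many of the changes shifted when 1 mouse was left out. Mouse 440 had 55 of 79 channel genes lower in the stimulated muscle and a median change of -0.40, with -0.30 over all tested probes. In mice 183, 197 and 438 the medians of the channel genes were -0.04, -0.08 and -0.05. Of the 40 channel genes picked by the naming rule, leaving out mouse 440 moved the change by over 1.5 times or turned its sign in 23, and leaving out mouse 183, 197 or 438 did so in 13, 12 and 17. A change near 0 meets this rule easily, and the same count was not made over all probes, so these counts are not particular to channel genes. Over all 4 mice, 4 channel genes were higher in every mouse, against 8.32% of all probes, and 12 were lower in every mouse, against 16.5%.

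The partner lists below were chosen with earlier results of these data known. Among 2 measured small GTPases that regulate calcium channels 1 rose, against 1.11% of all tested probes. Gem, a small GTPase that lowers calcium channel currents by binding their beta subunits, had 1.22, 0.969, 0.213 and 0.559 in contralateral muscle and 7.98, 6.76, 2.15 and 8.38 in stimulated muscle. The groups did not overlap, as for 1.63% of all probes with every stimulated muscle higher. Gem rose 9.12-fold (log2 change 3.19 ± 0.25, adjusted p 0.00148). Rrad, a GTPase of the same family, had 5.50, 5.45, 0.619 and 1.70 against 55.0, 45.5, 0.761 and 86.2. Mouse 438 differed by 0.30 on the log2 scale and the other 3 were far higher, and the change of 3.09 ± 0.64 did not pass (adjusted p 0.0576). Leaving out mouse 438 gave 4.02 (adjusted p 0.00678), and leaving out mouse 440 gave 2.23 (adjusted p 0.0406; 0.00678 to 0.991 over the 17 alternative settings).

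Of 5 measured genes of the sodium and potassium pump 1 rose, 0 fell and 4 did not pass. Fxyd5, a small regulatory subunit of the pump, rose 2.43-fold, from 1.44, 0.891, 2.34 and 2.06 to 3.35, 1.63, 6.15 and 6.42 (log2 change 1.28 ± 0.21, adjusted p 0.0207). It no longer passed without mouse 183, 197 or 438 (adjusted p 0.111, 0.053 and 0.089; 0.0189 to 0.906 over the alternative settings). Fxyd1, the pump regulator of muscle, had a change of -0.38 ± 0.15 and was negative in 4 of 4 mice, while the beta subunits Atp1b1, Atp1b2 and Atp1b3 stood at 0.31 ± 0.19, -0.36 ± 0.25 and 0.39 ± 0.19. Among 9 membrane scaffolds 1 rose, against 1.11% of all probes. It was Sntb2, a syntrophin that anchors channels to the dystrophin complex, which rose 2.56-fold (1.36 ± 0.26, adjusted p 0.0378). Its call ended without mouse 183, 197 or 440 (adjusted p 0.173, 0.159 and 0.0576; 0.0332 to 0.997 over the alternative settings). In Sntb2 the muscles of mouse 440 were the highest of their groups, at 2.23 and 9.11. Sgk1, a kinase that raises the surface level of several channels, had 46.0, 62.2, 39.6 and 32.5 against 21.4, 18.7, 18.6 and 26.5. The groups did not overlap, as for 1.7% of all probes with every stimulated muscle lower. The change of -1.05 ± 0.23 did not pass (adjusted p 0.0679). It was -1.31 without mouse 440 (adjusted p 0.00728; 0.00728 to 0.512 over the alternative settings). Ank3, Dmd and Nedd4l, an anchor, dystrophin and a ubiquitin ligase of channels, stood at -0.43 ± 0.26, -0.28 ± 0.28 and -0.11 ± 0.18, and without mouse 440 Ank3 and Dmd were at -0.09 and -0.08.

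Of 22 tested genes of the sarcoplasmic reticulum store and its coupling to the membrane 0 passed, with 9 positive and 13 negative changes and a median of -0.16. Jph3 and Homer1, a junction protein and a scaffold of calcium release channels, were higher in 4 of 4 mice, at 0.79 ± 0.22 (adjusted p 0.157) and 0.74 ± 0.26 (adjusted p 0.232). The related Jph1 and Jph2 went opposite ways, at 0.34 ± 0.22 (higher in 3 of 4 mice) and -0.33 ± 0.35 (higher in 1 of 4). Atp2a1, the calcium pump of fast fibres, and the calcium buffer Pvalb were lower in 4 of 4, at -0.63 ± 0.20 and -0.49 ± 0.15. Of 7 genes of calmodulin, its kinases and calcium extrusion 0 passed, with Calm2 at 0.39 ± 0.19, Calm3 at -0.44 ± 0.24, Atp2b2 at -0.54 ± 0.25 and Camk2a at -0.22 ± 0.20. Without mouse 440 Calm3, Atp2b2 and Camk2a were at -0.13, -0.26 and -0.10. Of 8 genes of the acetylcholine receptor and end plate 0 passed and 7 had negative changes, with Chrna1, the ligand-binding subunit, at -0.35 ± 0.19 and negative in 4 of 4 mice. Ache, Chrne and Musk stood at -0.50 ± 0.28, -0.31 ± 0.21 and -0.27 ± 0.30.

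**Figure D4:**
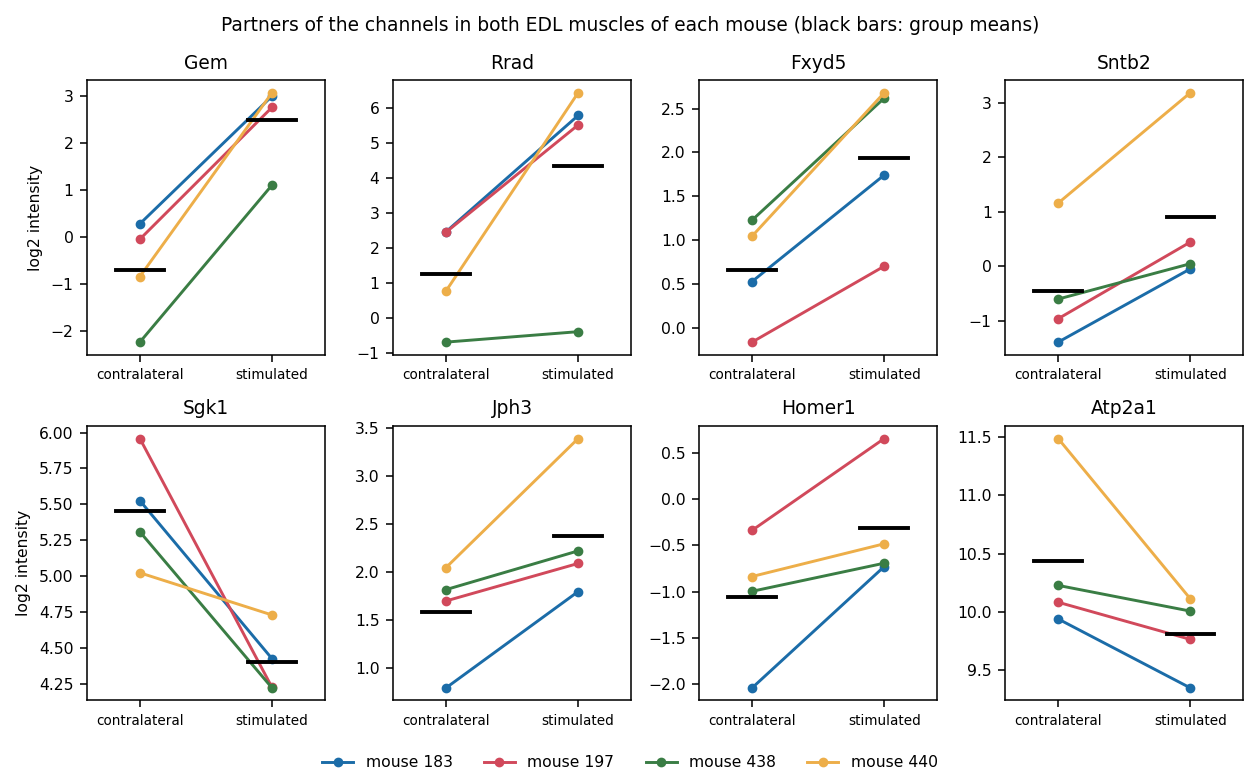
Log2 intensity (vertical axis, scaled separately for each gene) of 8 genes that act with channels, in the contralateral and stimulated EDL of each mouse, with black bars for the group means. Gem, Fxyd5 and Sntb2 were higher in every stimulated muscle and passed the threshold, while Rrad differed by 0.30 in mouse 438.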

How the data were processed

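RNA from 8 EDL muscles, 1 array each, was turned into cRNA carrying biotin and measured on CodeLink arrays of 1 colour, with bacterial mRNAs added for scaling, per the labels' protocols. The deposited table holds linear, already normalized intensities; the authors' background correction and exact scaling are not stated in the labels or the file. Intensities were used as deposited, raised to a floor at the 5th percentile of positive values (0.0937) and taken to log2. Genes were named from the platform's probe annotation, and all 80 symbols were current by Entrez identifier. Testing needed both values in 3 or more mice, which left 10406 probes. The test was limma (version 3.58.1, R 4.3.3) with a term per mouse and a variance trend on intensity, adjusted by Benjamini-Hochberg over all tested probes at 0.05, two-sided. It was tested on simulated data.

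The titles pair the muscles by mouse number. Both muscles of a mouse deviated together from their group means, with correlations of 0.52 to 0.64. Precision is limited by the number of arrays, 8 in all. Alternatives changed the block, scaling, floor, dim filter, variance model, probe averaging and animals. Channel genes, gene lists and the naming rule were chosen with earlier results of these data known. The rule names members past the threshold, the 20 with the smallest p, the 15 brightest, the extremes of each class, textbook channels of muscle, and from each partner list those past the threshold and up to 4 others by p. Further genes named in the text, such as Cacna1f, Cacna2d1, Kcna7, Jph1 and Jph2, were chosen after their values were seen.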

Additional observations from a re-analysis of the deposited data

Results flagged for a closer look

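Within groups of 4 muscles, 1 muscle stood far from the other 3 (a gap to the nearest muscle beyond Dixon's 95% critical value) in 9 of 128 groups examined, or 7.03%, where chance gives about 1 in 20. Among channel genes, the contralateral muscle of mouse 440 had Kcne4 at a log2 intensity of -0.33, with the other 3 between -1.96 and -1.69. Its stimulated muscle had Kcnh3 at 2.09, with the others between 1.29 and 1.33, and Kcnj15 at -1.83, with the others between -3.37 and -3.15. The stimulated muscle of mouse 438 had Kcna4 at -2.42, where the other 3 were at the floor, and that of mouse 197 had Kcnh2 at -1.91, with the others between -3.42 and -3.17. With 3 values tied at the floor, the flag of Kcna4 follows from the floor itself. Among partners, the stimulated muscle of mouse 438 was low for Gem (1.11, others 2.76 to 3.07) and Rrad (-0.39, others 5.51 to 6.43). The stimulated muscle of mouse 440 was high for Sntb2 (3.19, others -0.05 to 0.44), and the contralateral muscle of mouse 183 was low for Calm2 (5.00, others 5.32 to 5.35).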

How the results depend on the processing

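Under all 17 alternatives 0 channel genes passed the threshold in either direction, and their median change lay between -0.23 within mice 438 and 440 and -0.001 after cyclic loess, against -0.17 in the main test. Without mouse as a block the pairing of muscles was ignored, 0 channel genes passed, 0 had unadjusted p under 0.05 and the median was -0.17. With 1 mouse left out the median ranged from -0.21 to -0.11. The smallest adjusted p of any channel gene was 0.0868, within mice 438 and 440. Of 40 channel genes named by the rule, 24 never took the opposite sign in an alternative that tested them, Cacna1c, Kcne4, Kcns1, Kcnk7, Kcnj15, Kcna4 and Cacna1s among them; Kcnab2, also among them, was at 0 with the floor at the 20th percentile. The number of all probes past the threshold, which sets the background, was 139. It was 195 without mouse 440, 146 with the floor at the 1st percentile, 141 after median centring, 50 without the intensity trend, 75 with log2(intensity + 1), 7 without mouse 183, 67 without mouse 197, 79 within mice 438 and 440, 1 without the block, and 0 within mice 183 and 197, without moderation, or when the floor was raised to the 20th percentile. Gem passed in 13 of the 17 alternatives, Fxyd5 in 7, Sntb2 in 6, Rrad in 2 and Sgk1 in 1. The cause of these differences was not tested. Signal near the floor limits the dim probes most: 24 of the 79 tested channel genes were under the floor on at least 1 array. The untested Cacng3 was under it on 1.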

Other observations

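Several channel genes are next to each other among protein-coding genes of the mouse genome: Kcna1 with Kcna6, Kcna2 with Kcna3, Kcnj1 with Kcnj5, Kcnj6 with Kcnj15, Cacng1 with Cacng4, Scn10a with Scn11a, and Trpm5 with Kcnq1. Kcna2 and Kcna3 had log2 changes of 0.24 ± 0.21 and 0.21 ± 0.28, and Kcna1 and Kcna6 of -0.17 ± 0.24 and -0.23 ± 0.25. Kcnj6 and Kcnj15 had changes of opposite sign, at 0.30 ± 0.17 and -0.68 ± 0.27. None of these passed the threshold (limma, adjusted p 0.289 to 0.754).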
